A study of Mus musculus with 21 samples.

Results

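The net change from second pharyngeal arch (PA2) progenitors to pinna mesenchyme was taken from 3 RNA-seq libraries of PA2 neural crest cells of E10.5 mouse embryos and 3 libraries of crest cells of the E14.5 pinna, the outer ear. These 6 libraries were chosen by their labelled tissue and stage, out of 9 libraries of a stage series and 21 libraries in all. The study as a whole asks how distant enhancers control Hoxa genes in cranial crest. Its stage series follows wild-type crest cells from the arch into the ear, with the E12.5 pinna as the step between, and its other 12 libraries compare embryos with and without 1 enhancer region. Of those 12, only the 3 wild-type PA2 libraries, also of E10.5, are used below, for levels.

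Both groups were Wnt1::Cre;ROSA-RFP embryos, denoted wild type, on a mixed C57Bl/6J and CD1 background, with both sexes pooled and with 3 biological replicates each. Recombination by Wnt1::Cre takes place in the dorsal neural tube, where the crest arises, so sorting for red fluorescence keeps every lineage that descends from it. The sorted cells can hold crest-derived glia, pigment cells and neurons beside mesenchyme. Tissue was dissociated with trypsin at E10.5 and with papain at E14.5, and the effect of the enzyme and that of the stage cannot be told apart. The pinna is also only a part of what the PA2 gives rise to, so the loss of cells with another fate and a change within cells cannot be told apart. In such bulk samples, fewer cells of a type and less RNA per cell cannot be told apart either.

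The PA2 mesenchyme comes from crest cells that express Hoxa2, which sets the identity of this arch, and it forms skeletal elements of the middle ear and neck and the connective tissue of the outer ear. Endothelin signals and nested Dlx and Hand factors pattern the arch from top to bottom, and Hedgehog, FGF, BMP, Wnt and retinoic acid signals keep its cells growing. The pinna grows out as a fold of mesenchyme under epidermis, and its mesenchyme later makes dermis, perichondrium and elastic cartilage.

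Values below are CPM, the counts of a gene per 1e6 counts of its library, with library totals scaled by TMM. They are given for the 3 libraries of a group in the order of their replicate numbers. A gene was tested where it reached 1 CPM in at least 2 of the 9 libraries, which left 13438 of 24594 genes. A gene that passed through the libraries of 1 stage alone is high at that stage by this rule. A tested gene is said to have risen or fallen where the adjusted p of the edgeR quasi-likelihood test was under 0.05 and the change was at least 2-fold. By that rule 3103 genes (23.1%) rose and 2179 genes (16.2%) fell, 39.3% of the tested genes in all. The counts of list members that rose or fell below are to be read against these shares. At an adjusted p under 0.05 alone, 42.0% were higher and 40.0% lower at E14.5, together 82.0%. At 4-fold or more, 12.4% rose and 4.76% fell, at 8-fold or more 7.33% and 2.05%, and at 16-fold or more 597 genes (4.44%) and 138 genes (1.03%). The replicates of a group did not overlap with those of the other for 42.9% of the tested genes in the upward and 41.1% in the downward direction, so groups that stand apart are common here.

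Libraries held 29224954 to 30219297 counts at E10.5 and 47506139 to 49058941 counts at E14.5. Spearman correlations across genes were 0.993 to 0.997 within a group and 0.827 to 0.843 between the groups, and the first principal component of the stage series, with 78.5% of the variance, ordered the stages. The ribosomal transcript Rn45s took 1.51 to 2.28% of the counts at E10.5 and 0.357 to 0.84% at E14.5. The labelled cell type was seen in the markers of crest mesenchyme: Prrx1 stood at 357, 338 and 384 CPM in the PA2 and 307, 332 and 321 CPM in the pinna libraries, Twist1 at 202, 209 and 215 CPM and 359, 388 and 379 CPM, and the PDGF receptor gene Pdgfra at 895, 1033 and 1097 CPM and 3063, 3178 and 2772 CPM. Some genes that dividing cells use, such as Cdc45, had no count in any library of the table, so a gene at 0 in both groups is said only to be listed at 0.

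Genes were called switched off where every PA2 library held at least 1 CPM and every pinna library under 0.1 CPM, and switched on in the reverse case. These classes are made from the levels themselves and are described without a test. By this rule 27 genes (0.11% of all genes, 0.228% of those at 1 CPM or more in every PA2 library) were switched off and 91 genes (0.37%, and 0.727% of those at 1 CPM or more in every pinna library) were switched on. Just inside the limits for genes switched off, Gnat3 had 1.004 CPM in its lowest PA2 library and Npffr2 0.0881 CPM in its highest pinna library, and just outside, D030024E09Rik had 0.948 CPM and 9130024F11Rik 0.105 CPM. Just inside the limits for genes switched on, Ldhd had 1.009 CPM in its lowest pinna library and Zan 0.098 CPM in its highest PA2 library, and just outside, Lgals9 had 0.969 CPM and Scnn1b 0.1004 CPM. A gene with no count in a group was set against a floor of 3 counts over the group, which is 0.0335 CPM at E10.5 and 0.0216 CPM at E14.5, and for a gene with a few counts in that group the ratio of the groups is given with a 95% interval. These floors and intervals cover counting error only.

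Lin28a, an RNA-binding protein of early embryonic cells that blocks the let-7 microRNAs, had 44.4, 23.8 and 16.4 CPM in the PA2 libraries and no count in the pinna, at least 1301-fold lower. Its PA2 libraries differed among themselves by more than 2-fold, and its mean at E12.5 was 0.181 CPM.

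The retinoic acid enzyme genes Cyp26a1 and Cyp1b1 were switched off as well. Cyp26a1, which breaks retinoic acid down, went from 29.4, 23.4 and 17.3 CPM to 0.0881, 0 and 0.0219 CPM. Cyp1b1, a cytochrome that can make retinoic acid from retinol, went from 17.5, 15.8 and 15.3 CPM to no count, at least 749-fold lower. The growth factor gene Fgf15 went from 10.6, 9.85 and 11 CPM to 0, 0.0631 and 0 CPM, with 24.9% of its exon bases shared with a gene model on the other strand. The groups are far apart for each of these 3 genes, as the rule requires, and at E12.5 Cyp1b1 still had 1.02 CPM while Cyp26a1 and Fgf15 had 0.174 and 0.0593 CPM.

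Arch and limb patterning factors were among the rest of the 27. Nkx3-2, a homeobox gene of jaw and ear joint formation, went from 5.25, 5.11 and 4.77 CPM to no count (at least 233-fold lower), and Pitx1, a homeobox gene of the lower jaw and hindlimb, from 3.25, 5.25 and 5.13 CPM to no count (at least 209.9-fold). Hand1, a bHLH factor of the ventral arch, had 7.33, 2.3 and 1.21 CPM in the PA2, a spread wider than that of Nkx3-2, and no count in the pinna (at least 167-fold). The list also holds Foxl1, Sall3, Isl2, Gata2 and Tcf15, which code for transcription factors, the long noncoding RNA Fendrr, and genes of other kinds such as the water channel gene Aqp4, the neuropeptide FF receptor gene Npffr2, Pnma8c and Syt6.

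The 27 genes had a median of 3.61 CPM in the PA2, the lowest at 1.16 CPM, and 5 of them had 10 CPM or more. In libraries that the rule did not use, 24 of the 27 had a mean of 1 CPM or more in the wild-type PA2 libraries of the genotype table, which were counted and scaled on their own, and the other 3 had 0.1 to 1 CPM. At E12.5, 7 of them were already under 0.1 CPM, 16 lay between 0.1 and 1 CPM and 4 were still at 1 CPM or more. Ghrh, the growth hormone-releasing hormone gene, was the only one with a mean above that of E10.5 in the E12.5 pinna, at 8.46 CPM, against 1.94, 1.3 and 2.12 CPM in the PA2 and 0, 0.021 and 0 CPM in the E14.5 pinna.

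**Figure D1:**
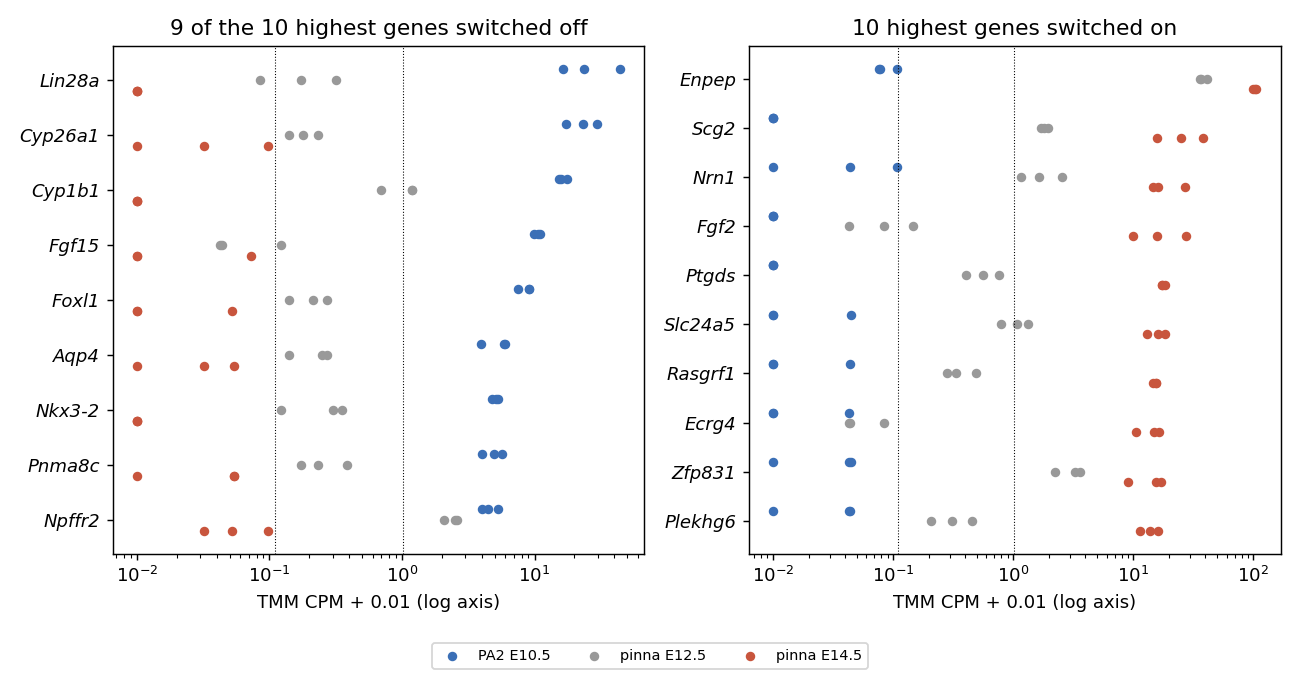
Level of 9 of the 10 genes switched off (left) and the 10 genes switched on (right) with the highest mean in the group where they are on, each point a library, as TMM-scaled CPM plus 0.01 on a log axis. Dotted lines stand at the limits of 0.1 and 1 CPM; blue points are PA2 E10.5, grey points pinna E12.5 and red points pinna E14.5, and the grey points of Enpep, Scg2, Nrn1 and Zfp831 already lie above 1 CPM.

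Fendrr and Foxl1 lie 75.8 kb from end to end in a forkhead gene cluster (chr8:121054882-121130644, GRCm38), the only pair of genes switched off within 500 kb of each other. The forkhead genes Foxf1 and Foxc2, both targets of Hedgehog signals in arch mesenchyme, lie between them and fell too. Foxf1 went from 37.1, 32.4 and 33.5 CPM to 0, 0 and 0.131 CPM (log2 fold change -9.52, SE 0.38, adjusted p = 9.7e-10). Foxc2 went from 37.8, 47.7 and 45.3 CPM to 0, 0.168 and 0.0219 CPM (log2 fold change -9.32, SE 0.33, adjusted p = 4.4e-10). These fitted folds rest on few pinna counts: without pinna replicate 3, which held all pinna counts of Foxf1, its value was -13.17, and without pinna replicate 2 that of Foxc2 was -11.53. Mthfsd, a gene of folate metabolism that lies between Foxf1 and Foxc2, had 52.4, 58.3 and 60.5 CPM and 59.4, 56.4 and 63.4 CPM, with overlapping groups (adjusted p = 0.42). In a second cluster on chromosome 13, Foxf2 went from 17.5, 18.2 and 19.2 CPM to 0, 0.021 and 0.175 CPM and Foxc1 from 132, 132 and 129 CPM to 0.859, 1.11 and 1.16 CPM, while Foxq1 had 1.1, 1.2 and 1.08 CPM and 0.551, 0.399 and 0.941 CPM and was not called. The 2 clusters were picked for these genes, so no test was made on them. Among 26 forkhead genes tested, 6 rose and 11 fell (23.1% and 42.3%, against 23.1% and 16.2% over all tested genes). Their median log2 fold change was -0.57 against 0.02 over all genes.

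Of the arch patterning genes (homeobox and bHLH factors such as the Dlx, Hand and Alx genes, and the endothelin genes), 24 were tested: 17 fell and 0 rose, with a median log2 fold change of -3.21 (the same with genes at 0 set to their bound). Their summed level was 1204 to 1272 CPM at E10.5 and 458 to 466 CPM at E14.5. Gsc, a homeobox gene that acts downstream of endothelin, went from 43.0, 58.4 and 59.8 CPM to 0.0881, 0.252 and 0.263 CPM (log2 fold change -8.03, SE 0.27, adjusted p = 3.1e-10). Hand2, which sets ventral arch fate, went from 137, 122 and 129.6 CPM to 2.69, 3.2 and 2.15 CPM (log2 fold change -5.59, SE 0.17, adjusted p = 1.3e-10), and 19.6% of its exon bases overlap Hand2os1. For both genes the groups lay far apart, with no pinna library near the PA2 range.

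The Dlx genes, which give the arches their upper and lower identity, did not move alike. Dlx1 fell from 143, 133 and 145 CPM to 19.3, 24 and 18.5 CPM, Dlx2 from 72.5, 78.1 and 86.2 CPM to 3.81, 4.92 and 5.21 CPM and Dlx3 from 142, 149 and 163 CPM to 20.4, 22.7 and 15.2 CPM, with log2 fold changes of -2.76, -4.08 and -2.96 (SE 0.10, 0.13 and 0.13). Dlx5 and Dlx6 stayed within 2-fold, Dlx5 at 45.3, 54.8 and 57.2 and then 29.9, 29.98 and 30.1 CPM and Dlx6 at 52.2, 53.8 and 55.0 and then 39.9, 43.3 and 38.3 CPM. Dlx1as, the antisense transcript of Dlx1, went from 25.2, 38.2 and 38.8 CPM to 0.022, 0.042 and 0.131 CPM. Pou3f3, a POU factor of the upper arch, had 216, 209 and 189 CPM and 184, 189.7 and 199 CPM (adjusted p = 0.16), and the endothelin receptor gene Ednra 57.3, 70.1 and 75.9 CPM and 106, 89.1 and 102 CPM, under 2-fold.

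Among 20 tested crest and arch progenitor factors, 6 rose and 6 fell, with a median log2 fold change of -0.18. That is 30% each way, against 23.1% risen and 16.2% fallen over all tested genes. The nuclear receptor genes Nr2f1 and Nr2f2 fell, Nr2f1 from 403, 411 and 441 CPM to 18.4, 24.1 and 21.9 CPM (log2 fold change -4.28, SE 0.10, adjusted p = 2.1e-11). Nr2f2 fell by 3.53 on the log2 scale. Msx2, a homeobox target of BMP signals, fell from 16.6, 8.72 and 8.6 CPM to 0, 0.252 and 0.153 CPM, while its relative Msx1 had 80.4, 102 and 119 CPM and 62.3, 61.4 and 94.5 CPM. The factors Pax3 and Tfap2b, which crest and pigment cells use, rose by 5.51 and 3.99 on the log2 scale, and Ets1 rose from 99.8, 85.6 and 87.0 CPM to 460.0, 469.8 and 447 CPM. Ebf3, an early B-cell factor gene of mesenchyme, was among the largest falls and went from 239, 252 and 279 CPM to 0.33, 0.673 and 0.788 CPM (log2 fold change -8.74, SE 0.18, adjusted p = 1.5e-11).

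Hoxa2 was read at both stages and was higher in the pinna by less than 2-fold. It had 122, 126 and 128 CPM in the PA2 and 164, 155 and 147 CPM in the pinna, a change of 0.31 on the log2 scale (SE 0.06, adjusted p = 5.4e-04 in edgeR), with the mean of the E12.5 pinna, 212 CPM, above both. Every pinna library lay above every PA2 library, and 15% of the exon bases of Hoxa2 are shared with another gene model. Of 13 tested Hox genes and cofactors, 1 rose and 3 fell. Hoxa3, which marks more posterior arches, rose from 1.71, 1.68 and 2.88 CPM to 5.62, 6.33 and 6.76 CPM and stayed far below Hoxa2 per length of transcript (mean 1.04 against 68.8 RPKM in the pinna). Hoxb2 fell from 22.3, 20.5 and 19.2 CPM to 4.71, 4.73 and 6.17 CPM, and 27.3% of its exon bases overlap an antisense gene. The Hox cofactor genes Meis1 and Meis2 were at 603 and 717 CPM in the pinna, each within 2-fold of the PA2.

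Genes of embryonic timing and early growth fell as a group: 0 rose and 12 fell of 18 tested, with a median log2 fold change of -2.003. Beside Lin28a, its relative Lin28b went from 229, 164 and 149 CPM to 4.87, 5.49 and 4.05 CPM (log2 fold change -5.23, SE 0.23, adjusted p = 2.1e-09). The let-7 target Trim71 went from 119, 77.6 and 69.4 CPM to 2.84, 3.34 and 3.5 CPM, and Sall4, a zinc finger factor of pluripotent cells, from 44.2, 30.8 and 24.1 CPM to 1.83, 1.2 and 0.941 CPM. Igf2bp1, which binds and stabilises growth-related mRNAs, was the highest of the list in the PA2 and fell from 966, 859 and 847 CPM to 105, 111 and 94.4 CPM. The high-mobility group gene Hmga2, also a let-7 target, was not called, with 354, 369 and 353 CPM and 302, 353 and 246 CPM (adjusted p = 0.079). Mycn, a proto-oncogene of growing progenitors, and Dnmt3b, a DNA methyltransferase, fell by 3.52 and 2.06 on the log2 scale, while the related Dnmt3a differed by 0.074 (adjusted p = 0.22).

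Of the 91 genes switched on, 28 had no count in the PA2 libraries, and 17 had a mean of 10 CPM or more in the pinna. The median level in the pinna was 3.58 CPM, from 1.19 to 103 CPM. Enpep, a membrane peptidase that cleaves angiotensin II, was by far the highest. It had 0.0669, 0.0686 and 0.098 CPM in the PA2, 38.1 CPM on average at E12.5 and 106, 103 and 99.4 CPM in the E14.5 pinna, a ratio of 1316 (639 to 3275).

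The next genes were of several kinds. Scg2, a protein of secretory granules, had no count in the PA2 and 25.2, 38.1 and 15.8 CPM in the pinna, at least 793-fold higher. Ptgds, the prostaglandin D2 synthase gene, had 17.5, 17.4 and 18.4 CPM in the pinna, at least 531-fold higher than in the PA2, where it had no count. Fgf2, a growth factor of fibroblasts, had 9.96, 27.7 and 15.9 CPM, at least 538-fold higher. The 3 pinna libraries of Ptgds lay close together, and those of Scg2 and Fgf2 spread by more than 2-fold.

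Several of the 17 highest code for peptide ligands and receptors. Nmur2, a neuromedin U receptor, had 16.5, 16.8 and 6.9 CPM (at least 401-fold higher), the secreted ligand gene Prok2 11.6, 11.5 and 12.3 CPM (at least 352-fold) and Nppc, the C-type natriuretic peptide gene, 11, 12.53 and 15.7 CPM against 0.0335, 0 and 0.0327 CPM. Gad2, which makes the transmitter GABA, had 0, 0 and 0.0654 CPM in the PA2 and 11.5, 16 and 10.8 CPM in the pinna, and was higher at E12.5, at 15.7 CPM. Nrn1, a neurite growth protein, had 16, 14.7 and 27.2 CPM and shares 22.3% of its exon bases with Fars2 on the other strand. The Ras exchange factor gene Rasgrf1, the augurin gene Ecrg4, Zfp831, the guanine nucleotide exchange factor gene Plekhg6, the Wnt antagonist gene Sfrp5 and the actin-binding protein gene Ablim3 had means of 15.2, 14.0, 13.9, 13.8, 13.2 and 10.3 CPM in the pinna. The pigment genes Slc24a5 and Tyrp1 complete the 17 and are described below.

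Most of the 91 genes reached 1 CPM only after E12.5. In the E12.5 pinna 17 of them had a mean under 0.1 CPM, 56 lay between 0.1 and 1 CPM and 18 reached 1 CPM, and 2 of them were higher then than at E14.5. In the wild-type PA2 libraries of the genotype table, for which no sorting is stated, 51 had a mean under 0.1 CPM, 27 lay between 0.1 and 1 CPM and 13 had 1 CPM or more. Slc24a5 was the extreme of these, with 57.0 CPM there against at most 0.0343 CPM in a sorted PA2 library. Slc24a5 shares 39.5% of its exon bases with Myef2 on the other strand. Ldhd, B3galt2 and Fam151a, with 6.17, 6.86 and 2.00 CPM in those wild-type libraries, also overlap a gene on the other strand. The pigment genes Tyrp1 and Mlana, which have no such overlap, had 0 and 0.11 CPM there. Without overlap too, the epithelial gene Fat2 had 7.36 CPM there and the globin gene Hbb-b1 4.88 CPM. Whether sorting or the counting of overlapping genes lies behind these differences was not tested. Only 69.2% of the genes switched on and 51.9% of those switched off had an entry in the promoter table, so a check of promoter GC and CpG content over these classes was void.

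Extracellular matrix genes led the gains in CPM. Of 42 tested fibroblast matrix genes, 38 rose and 0 fell, with a median log2 fold change of 3.34. Their summed level was 8219.8 to 9949 CPM at E10.5 and 73443 to 94115 CPM at E14.5, that is 0.898% of the counts on average at E10.5 and 8.51% at E14.5. Of the 10 genes that gained the most CPM, 9 were collagen genes and the other was the nuclear noncoding RNA Malat1.

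Col3a1, the fibrillar collagen of soft connective tissue, went from 2122, 2211 and 2402 CPM to 24919, 19022 and 27122 CPM (log2 fold change 3.3998, SE 0.12, adjusted p = 4.5e-10). The collagen I chain genes Col1a1 and Col1a2 rose from means of 232 and 765 CPM to 6734 and 13665 CPM. The collagen VI chains, which form beaded filaments round cells, rose by more: Col6a1 from 30.4, 37.0 and 47.3 CPM to 4448, 3755 and 4184 CPM, and Col6a3 from 85.5, 117 and 174 CPM to 6449, 5583 and 6369 CPM. Over all 37 tested collagen chain genes, 29 rose and 3 fell.

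The steepest rise of the list was that of Aspn, a small leucine-rich proteoglycan, from 0.0335, 0.0686 and 0.196 CPM to 253, 242 and 307 CPM, with 1.25 CPM on average at E12.5 (log2 fold change 11.33, SE 0.25, adjusted p = 2.1e-11), or 12.26 without PA2 replicate 3. The related collagen-binding proteoglycans Dcn and Lum went from 1.37, 1.44 and 1.6 CPM to 283, 264 and 394 CPM and from 4.22, 5.18 and 5.88 CPM to 509, 459 and 742 CPM. Eln, the elastin gene, went from 11.2, 14.0 and 14.8 CPM to 1312, 969 and 1268 CPM (log2 fold change 6.47, SE 0.16, adjusted p = 3.2e-11). Fn1, the fibronectin gene, was high at both stages and changed by 0.98 on the log2 scale, and the versican gene Vcan, a large proteoglycan of early mesenchyme, had 1167, 1187 and 1284 CPM and 670.5, 987 and 686 CPM, lower at E14.5 but within 2-fold. Ltbp2 rose to 18.7, 10.1 and 55.3 CPM, with its pinna replicates widely spread.

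Of 27 tested matrix remodelling enzymes and inhibitors, 16 rose and 5 fell, with a median of 1.47. That is 59.3% and 18.5%, against 23.1% and 16.2% over all tested genes. Adamts12, a secreted metalloprotease, rose from 9.94, 10.0 and 10.7 CPM to 438, 435 and 460.0 CPM (log2 fold change 5.44, SE 0.07, adjusted p = 9.1e-13), and Ctsk, a collagen-degrading cathepsin, from 2.58, 5.22 and 4.22 CPM to 269.5, 224 and 275 CPM. The metalloprotease genes Mmp2 and Mmp14 rose by 2.13 and 1.66, and Mmp3 was switched on, from no count to 3.66, 2.69 and 3.48 CPM. Adamts18 fell from 8.87, 9.57 and 10.3 CPM to 0.0881, 0.252 and 0.219 CPM.

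Of 21 dermal mesenchyme genes, 9 rose and 6 fell. Tbx15, a T-box gene of skin and outer ear, went from 19.6, 26.1 and 28.9 CPM to 287, 299 and 300.3 CPM, Dpt, a dermal matrix protein, from 0.636, 0.446 and 0.261 CPM to 41.2, 46.2 and 65.7 CPM, and Prdm1, a repressor found in dermal cells, from 0.903, 1.48 and 2.84 CPM to 62.0, 70.8 and 62.0 CPM. Trps1, a zinc finger factor of cartilage and hair follicles, fell from 194, 182 and 184 CPM to 11.1, 12.1 and 13.0 CPM. The tendon factor gene Scx fell from 9.87, 14.9 and 15.3 CPM to 2.36, 2.56 and 5.43 CPM.

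Cartilage genes went both ways, with 4 rises and 5 falls among 14 tested (28.6% and 35.7%, against 23.1% and 16.2% over all tested genes). Sox9, the master factor of cartilage, fell from 77.0, 77.0 and 79.7 CPM to 1.76, 1.49 and 2.01 CPM (log2 fold change -5.47, SE 0.16, adjusted p = 1.1e-10), with 30.2 CPM on average at E12.5. Its targets Col2a1 and Col9a1 fell from 1066, 1077 and 1130.4 CPM to 218, 265 and 221 CPM and from 516, 505 and 491 CPM to 106, 79.9 and 134 CPM. Matn4 rose from 0.10, 0.412 and 0.654 CPM to 88.5, 76.1 and 93.3 CPM, and Acan, the aggrecan gene, from 1.24, 1.99 and 3.01 CPM to 10.1, 11.1 and 13.9 CPM. Of 8 tested bone genes 3 rose and 1 fell. Among them, the mineralisation phosphatase gene Alpl rose from 5.05, 5.49 and 4.22 CPM to 50.0, 46.9 and 50.0 CPM, while Runx2, the master factor of bone, had 2.24, 3.33 and 4.51 CPM and 4.21, 3.24 and 5.23 CPM (adjusted p = 0.25) and overlapped between the groups.

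**Figure D2:**
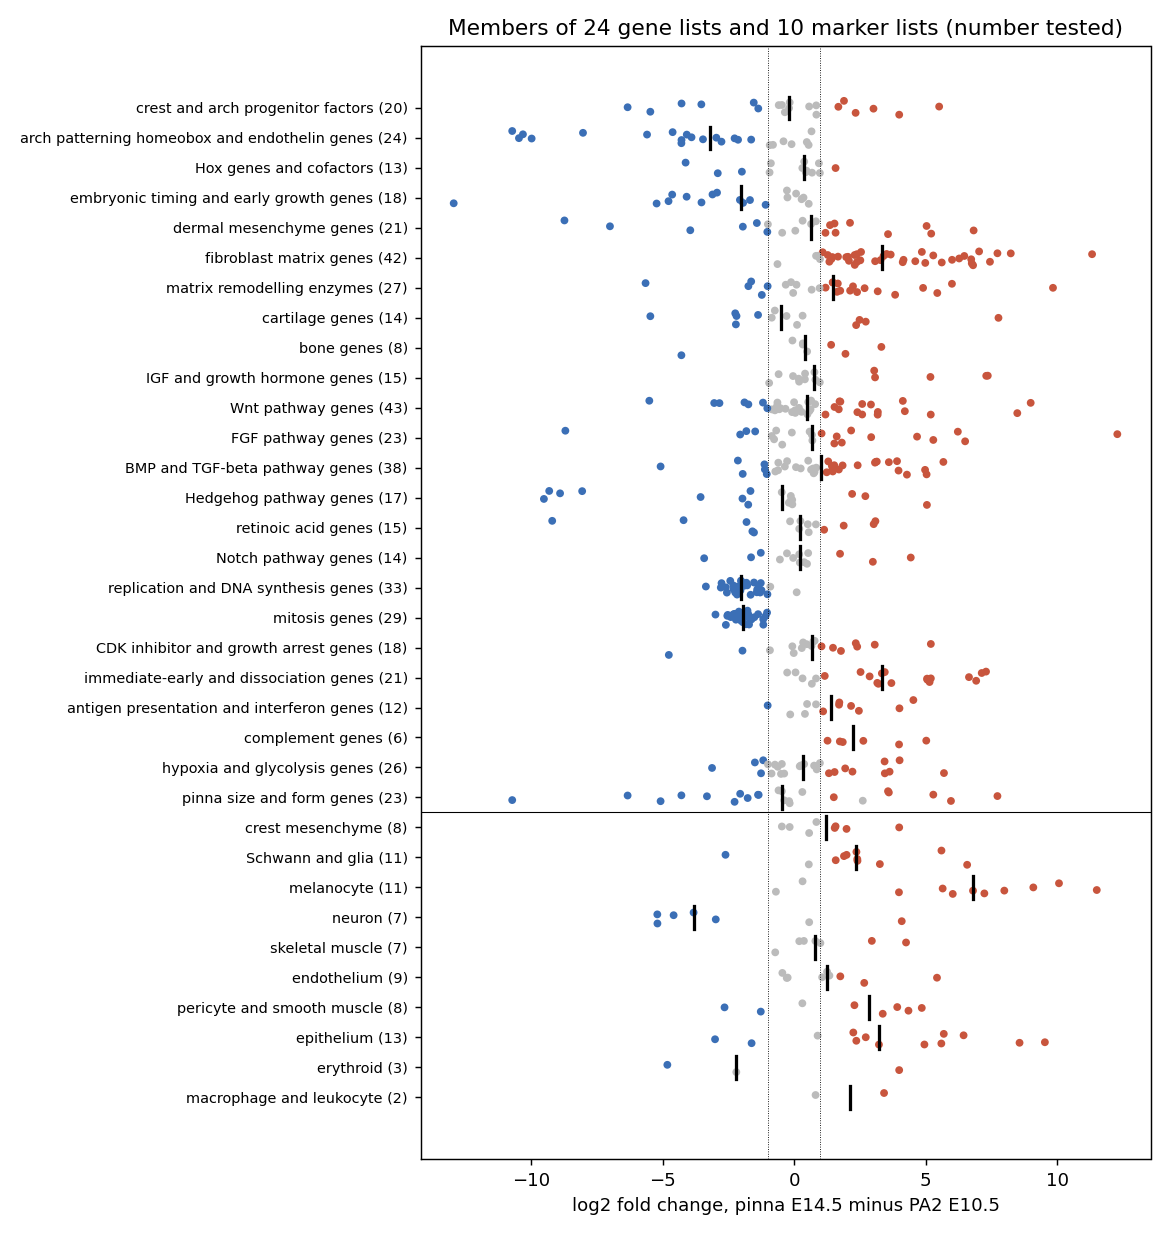
Fitted log2 fold change (pinna E14.5 minus PA2 E10.5, x axis) of each tested member of 24 gene lists and, under the line, 10 marker lists, with the number tested in brackets. Red points rose, blue points fell and grey points were not called at 2-fold, dotted lines mark 2-fold and black bars the median of each list; the replication and mitosis lists lie almost wholly to the left, and the fibroblast matrix list almost wholly to the right.

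The cell cycle genes fell almost without exception. Of 33 tested genes of replication and DNA synthesis, 31 fell and 0 rose, with a median log2 fold change of -2.02, and of 29 tested mitosis genes 29 fell, with a median of -1.95. The replication genes summed to 7414 to 7596 CPM at E10.5 and 1847 to 1982 CPM at E14.5, and the mitosis genes to 7422 to 8493 CPM at E10.5 and 1755 to 2635 CPM at E14.5, with E12.5 in between. Mcm5, a subunit of the replicative helicase, went from 579.6, 598 and 573 CPM to 106, 90.8 and 91.9 CPM (log2 fold change -2.60, SE 0.07, adjusted p = 6.6e-11). Rrm2, which makes deoxynucleotides, fell the most of its list, from 421, 387 and 415 CPM to 35.8, 44.4 and 39.0 CPM. Plk1, a mitotic kinase, went from 152, 153 and 144 CPM to 15.4, 19.8 and 21.2 CPM (log2 fold change -2.99, SE 0.10, adjusted p = 3.8e-10), and the proliferation marker Mki67 from 1136, 1180.5 and 1090.1 CPM to 307, 475 and 411 CPM. The exceptions were Pola1, a DNA polymerase subunit lower by 0.91 on the log2 scale and so within 2-fold, and E2f1, a transcription factor of this gene set, at 42.3, 40.6 and 45.3 CPM and 45.1, 40.9 and 51.0 CPM with overlapping groups.

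Of 75 tested histone genes 68 fell and 1 rose, with a median log2 fold change of -3.12, though near-identical copies can share reads. The linker histone gene H1f1 fell from a mean of 1502 CPM to 213 CPM. Of 18 tested genes in a list of CDK inhibitors, growth arrest genes and the cyclins D and G, 7 rose and 2 fell. Cdkn1c, a CDK inhibitor, rose from 129, 172 and 190.4 CPM to 721, 732 and 1042 CPM, with 30.7% of its exon bases shared with a gene model on the other strand, and the cyclin gene Ccnd3 from 125, 131 and 135 CPM to 264, 247 and 294 CPM. Ccnd1 and Ccnd2, which drive cells into the cycle, changed by only 0.34 and 0.48 on the log2 scale.

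The promoters of many of these genes hold E2F or CHR words, the sites through which cell cycle genes are known to be controlled, and 3 of them are printed for that reason. RefSeq promoter windows (GRCm38.p6, 250 bases before to 50 after the start) were at hand for 24 of 30 mitosis genes and 28 of 34 replication genes. The CHR element, searched as TTTGAA or TTCGAA on both strands, was in 19 of the 24 mitosis windows (79.2%), against 19.5% of all 27025 windows and 13.5% of those of tested genes. The E2F site, searched as TTTCCCGC, TTTCGCGC, TTTGCCGC or TTTGGCGC on both strands, was in 12 of the 28 replication windows (42.9%), against 2.33% of all windows and 4.23% of those of tested genes. The motifs were chosen after these genes were seen to fall, and a match is a description of the letters, not of binding. The capitals below mark the matches. Mcm5 (chr8:75109259-75109558, plus strand) has overlapping E2F matches on both strands about 150 bases before its start, at 153 and 149 bases, Plk1 (chr7:122159185-122159484, plus strand) a CHR match 30 bases after the start, and Ccnb2 (chr9:70421505-70421804, minus strand), a cyclin of mitosis that fell from 136, 136 and 123 CPM to 26.5, 32.8 and 32.8 CPM, CHR matches 167 bases before and 4 bases after it.
Mcm5: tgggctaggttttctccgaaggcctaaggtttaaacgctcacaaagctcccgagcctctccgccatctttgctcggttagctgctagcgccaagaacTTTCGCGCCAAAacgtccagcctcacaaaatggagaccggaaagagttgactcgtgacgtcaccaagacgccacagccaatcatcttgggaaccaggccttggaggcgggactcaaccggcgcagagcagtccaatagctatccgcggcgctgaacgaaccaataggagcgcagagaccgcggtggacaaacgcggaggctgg
Plk1: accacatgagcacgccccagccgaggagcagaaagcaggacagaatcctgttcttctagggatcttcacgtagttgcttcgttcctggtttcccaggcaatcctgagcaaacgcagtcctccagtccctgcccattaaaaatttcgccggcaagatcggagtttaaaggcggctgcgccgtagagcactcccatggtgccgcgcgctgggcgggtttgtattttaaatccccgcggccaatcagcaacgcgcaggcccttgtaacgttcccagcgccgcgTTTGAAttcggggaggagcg
Ccnb2: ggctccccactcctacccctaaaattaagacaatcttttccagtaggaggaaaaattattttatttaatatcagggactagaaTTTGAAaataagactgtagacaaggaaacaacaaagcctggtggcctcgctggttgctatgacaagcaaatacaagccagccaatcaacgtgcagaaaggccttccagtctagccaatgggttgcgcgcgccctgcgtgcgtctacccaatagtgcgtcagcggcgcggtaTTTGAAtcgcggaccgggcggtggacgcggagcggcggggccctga

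**Figure D3:**
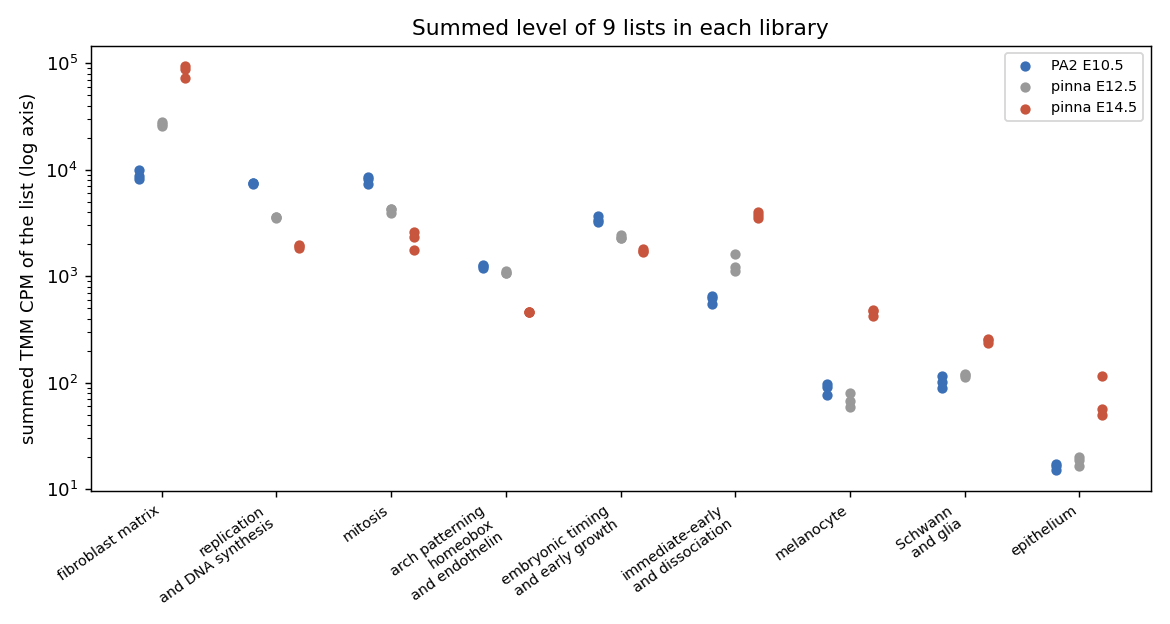
Summed TMM-scaled CPM of the genes of 9 lists (log axis) in each library, blue for PA2 E10.5, grey for pinna E12.5 and red for pinna E14.5. The fibroblast matrix sum rises and both cell cycle sums fall at each stage, while the melanocyte and epithelium sums rise only in the E14.5 libraries.

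Of the FGF pathway genes, 23 were tested and 11 rose and 4 fell, with a median of 0.69. That is 47.8% and 17.4%, against 23.1% and 16.2% over all tested genes. Among the 12 tested FGF ligand genes of the whole family, 9 rose and 2 fell. Fgf7, a mesenchymal ligand for epithelial receptors, went from 2.04, 1.65 and 1.8 CPM to 128, 132 and 151 CPM (log2 fold change 6.22, SE 0.12, adjusted p = 8.4e-12). Fgf10, which signals in the same direction, went from 3.75, 3.26 and 3.5 CPM to 141, 142 and 129 CPM (log2 fold change 5.29, SE 0.16, adjusted p = 1.5e-10), and Fgf9, a ligand usually made by epithelium, from 0.803, 0.446 and 0.752 CPM to 59.3, 61.3 and 62.2 CPM. Per length of transcript, Fgf7 and Fgf10 were the highest FGF ligands named here in the pinna, at 42.2 and 29.8 RPKM, against 13.1 RPKM for Fgf9 and 2.63 RPKM for Fgf2.

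With Fgf15 switched off and Fgf3 lower (log2 fold change -2.05, SE 0.40, adjusted p = 5.1e-04), these 2 ligands went the other way. The receptor genes moved less: Fgfr1 had 319, 354 and 359 CPM and 565, 515 and 586 CPM, and Fgfr2 187, 189 and 186 CPM and 180.1, 175 and 174 CPM (adjusted p = 0.15). Among genes that FGF signals induce, the feedback inhibitor Spry4 rose from 11.6, 9.99 and 11.6 CPM to 87.7, 87.0 and 78.8 CPM, and the ETS factor Etv4 fell from 36.9, 35.7 and 29.5 CPM to 13.1, 9.82 and 6.04 CPM, so these readouts did not share a direction.

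Of 43 tested Wnt pathway genes, 16 rose and 7 fell (37.2% and 16.3%, against 23.1% and 16.2% over all tested genes). The share that fell was thus near that over all genes. Of 11 tested Wnt ligand genes 8 rose and 0 fell. Wnt5a, a ligand that shapes outgrowing tissues, went from 91.2, 89.8 and 84.4 CPM to 1538, 1586 and 1784 CPM (log2 fold change 4.21, SE 0.08, adjusted p = 6.9e-12). Wnt4 rose from 0.134, 0.137 and 0.098 CPM to 43.8, 38.8 and 53.2 CPM (log2 fold change 8.49, SE 0.23, adjusted p = 6.7e-11), and Wnt11 from 4.28, 7.0 and 9.54 CPM to 57.8, 54.2 and 76.5 CPM. The ligands Wnt5b and Wnt2 were not called, Wnt2 at 0.301, 0.686 and 1.18 CPM and 0.507, 0.82 and 0.722 CPM. Per length, Wnt5a stood at 209 RPKM in the pinna, Wnt11 at 15.2 and Wnt4 at 10.8 RPKM.

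Receptors and antagonists of the pathway went both ways. Fzd4 fell from 241, 255 and 239 CPM to 3.57, 4.92 and 7.62 CPM (log2 fold change -5.51, SE 0.21, adjusted p = 6.3e-10), and Fzd10 rose from 24.1, 27.9 and 28.0 CPM to 190.4, 150.0 and 139.9 CPM. Ror1, a receptor for Wnt5a, fell from 65.6, 63.4 and 58.5 CPM to 18, 16.4 and 16.2 CPM, while the related Ror2 stayed within 2-fold at 105, 123 and 138 and then 184, 169.8 and 195.2 CPM. The secreted antagonist genes Sfrp1 and Frzb fell by 1.74 and 2.84 on the log2 scale, and Dkk3, Sfrp5 and Sfrp4 rose, Dkk3 from 5.32, 5.8 and 5.95 CPM to 228, 173 and 224 CPM. Axin2, a common readout of canonical Wnt signals, had 211, 240.2 and 248 CPM and 329, 305 and 356 CPM, higher but within 2-fold.

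Of 17 tested Hedgehog pathway genes, 3 rose and 8 fell (17.6% and 47.1%, against 23.1% and 16.2% over all tested genes). The receptor and target gene Ptch1 fell from 314, 303 and 324 CPM to 90.6, 94.6 and 95.1 CPM (log2 fold change -1.75, SE 0.07, adjusted p = 8.4e-10). Gli1, the transcription factor that Hedgehog signals induce, fell from 77.3, 79.6 and 85.1 CPM to 25.6, 20.4 and 30.5 CPM, with a lower mean still of 2.9 CPM at E12.5. The signal transducer gene Smo had 322, 329 and 339 CPM and 298, 262 and 302 CPM, within 2-fold. The coreceptor genes Cdon and Boc rose, Boc from 59.3, 73.6 and 83.3 CPM to 461, 423 and 529 CPM, and so did Osr2, an arch target gene, from 2.41, 5.32 and 6.01 CPM to 149.6, 146 and 159 CPM. The Hedgehog ligand genes were not tested, and Shh had at most 0.0219 CPM in any of the 6 libraries.

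**Figure D4:**
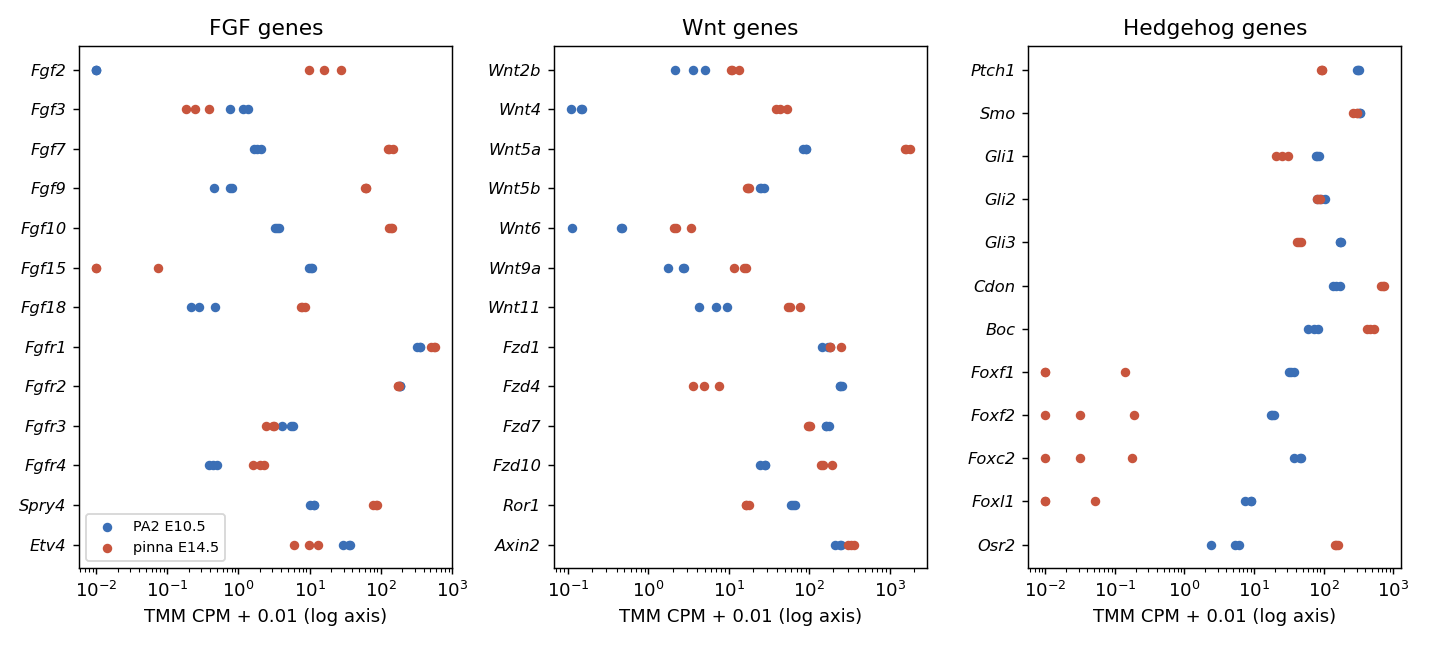
Level of 13 FGF, 13 Wnt and 12 Hedgehog pathway genes in each PA2 E10.5 library (blue) and pinna E14.5 library (red), as TMM-scaled CPM plus 0.01 on log axes. Fgf7, Fgf9, Fgf10, Wnt4 and Wnt5a lie far to the right in the pinna, and Fgf15, Fzd4 and the 4 forkhead genes of the Hedgehog panel far to the left.

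Of 38 tested BMP and TGF-beta pathway genes, 19 rose and 6 fell, with a median of 1.04. That is 50% and 15.8%, against 23.1% and 16.2% over all tested genes. Bmp5, whose loss shortens the mouse ear, rose from 16.4, 15.9 and 17.2 CPM to 185, 215 and 199.8 CPM (log2 fold change 3.60, SE 0.08, adjusted p = 1.7e-11), with 46.7% of its exon bases shared with a gene model. Gdf6 fell from 12.6, 6.62 and 5.29 CPM to 0.286, 0.189 and 0.241 CPM. Tgfb3 rose from 21.6, 26.0 and 24.9 CPM to 221, 202 and 218 CPM and the receptor gene Tgfbr2 from 19.8, 21.7 and 24.9 CPM to 375, 322 and 344 CPM (log2 fold change 3.97, SE 0.09, adjusted p = 2.8e-11). The secreted BMP antagonist genes Chrd and Grem1 rose from 5.39, 5.66 and 7.16 CPM to 92.5, 83.3 and 98.6 CPM and from 5.69, 8.75 and 8.92 CPM to 156, 175 and 126 CPM, and the activin antagonist gene Fst from 2.68, 5.11 and 3.3 CPM to 123, 113 and 127 CPM. The inhibitory SMAD genes Smad6 and Smad7, which BMP and TGF-beta signals induce, were lower at E14.5 within 2-fold (-0.72 and -0.27).

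Of 15 tested retinoic acid genes 4 rose and 5 fell (26.7% and 33.3%, against 23.1% and 16.2% over all tested genes). While Cyp26a1 was switched off, its relative Cyp26b1 rose from 25.4, 42.4 and 56.1 CPM to 357, 338 and 361 CPM (log2 fold change 3.09, SE 0.21, adjusted p = 8.7e-08). Aldh1a2, which makes retinoic acid, fell from 8.83, 15.1 and 21.8 CPM to 0.683, 0.315 and 1.49 CPM after a mean of 37.6 CPM at E12.5, and Aldh1a3 rose from 0.836, 0.858 and 1.83 CPM to 4.41, 4.31 and 4.36 CPM. The receptor genes Rara and Rarg were not called.

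Of 15 tested genes of insulin-like growth factor and growth hormone signalling, 5 rose and 0 fell. Igfbp3, which binds these factors, rose from 17.1, 12.2 and 10.9 CPM to 2118, 2132 and 2385 CPM (log2 fold change 7.36, SE 0.16, adjusted p = 1.9e-11), one of the largest gains outside the collagens, and Igfbp5 from 215, 266 and 326 CPM to 2211, 2104 and 2346 CPM. The growth hormone receptor gene Ghr rose from 19, 18 and 17.2 CPM to 144, 153 and 160.1 CPM. Igf2, the main fetal growth factor of the family, was lower by 0.95 on the log2 scale and so within 2-fold, and 62.8% of its exon bases overlap a gene model. Of 14 tested Notch pathway genes 3 rose and 3 fell (21.4% each), near the 23.1% and 16.2% over all tested genes. The target gene Hey1 fell from 41.5, 28.1 and 25.7 CPM to 2.64, 3.41 and 2.82 CPM, and the ligand gene Dll4 rose from 0.401, 0.412 and 0.36 CPM to 9.65, 9.14 and 6.76 CPM.

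Of 23 tested genes named for pinna size and form, 6 rose and 10 fell, with a median of -0.47. That is 26.1% and 43.5%, against 23.1% and 16.2% over all tested genes. Hmx1, whose loss alters the outer ear, fell from 78.0, 90.5 and 86.0 CPM to 8.11, 6.87 and 10.6 CPM, and Eya1, a coactivator of ear development, from 46.8, 35.8 and 33.4 CPM to 6.78, 9.94 and 7.36 CPM (log2 fold change -2.27, SE 0.18, adjusted p = 2.3e-07). Tbx15, Bmp5, Fgf10 and Dcn, described above, were among the members that rose. The genes are drawn from the lists above in part, and the list was made with knowledge of results of these data.

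Pigment cell genes showed the largest median rise among the marker lists. Of 11 tested melanocyte genes 9 rose and 0 fell, with a median log2 fold change of 6.80, or 6.03 with the genes at 0 in the PA2 set to their bound. Of the 11, 4 were genes switched on. Tyrp1, Mlana and Gpr143 were under 1 CPM in every E10.5 and E12.5 library, so they were tested through the E14.5 libraries alone. The count and the median are in part set by that filter. Mitf, the master factor of melanocytes, went from 3.88, 3.6 and 3.2 CPM to 51.8, 59.8 and 57.8 CPM (log2 fold change 3.99, SE 0.10, adjusted p = 4.5e-11). Pmel, a protein of the pigment granule, went from 1.41, 2.75 and 2.09 CPM to 133, 130.3 and 144 CPM. The pigment enzyme genes rose too: Dct from 0.602, 1.41 and 0.85 CPM to 128, 148 and 155 CPM, Tyr from 0.0335, 0.172 and 0.098 CPM to 21.8, 30.6 and 27.1 CPM, and Tyrp1 from no count to 11.2, 8.91 and 11.1 CPM (at least 309.9-fold higher). The groups stood apart for each of these 5 genes, as they did in the upward direction for 42.9% of tested genes. For Tyrp1 the rule for genes switched on requires it. Kit, a receptor that melanoblasts share with other cells, was lower within 2-fold (log2 fold change -0.69, SE 0.14, adjusted p = 5.4e-04), and Trpm1 had 16.8, 16.5 and 16.1 CPM and 19.9, 21.9 and 19.7 CPM.

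The promoters of the pigment enzymes are shown because each holds the word CATGTG, the core of the M-box that MITF is known to bind, here in capitals (on the other strand CACATG). Tyrp1 (chr4:80833963-80834262, plus strand) has it 46 bases before its start, Tyr (chr7:87493463-87493762, minus strand) 21 bases before, and Dct (chr14:118052197-118052496, minus strand) 232 and 150 bases before.
Tyrp1: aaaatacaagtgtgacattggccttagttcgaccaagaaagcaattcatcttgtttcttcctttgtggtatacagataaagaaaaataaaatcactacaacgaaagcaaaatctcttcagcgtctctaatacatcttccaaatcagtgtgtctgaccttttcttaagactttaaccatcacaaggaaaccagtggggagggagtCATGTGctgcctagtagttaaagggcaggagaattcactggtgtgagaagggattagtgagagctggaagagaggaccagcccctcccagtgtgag
Tyr: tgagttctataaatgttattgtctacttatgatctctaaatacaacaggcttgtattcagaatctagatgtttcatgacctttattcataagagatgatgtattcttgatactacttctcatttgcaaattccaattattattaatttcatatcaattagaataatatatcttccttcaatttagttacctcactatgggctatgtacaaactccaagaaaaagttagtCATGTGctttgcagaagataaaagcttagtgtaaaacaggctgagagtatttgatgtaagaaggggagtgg
Dct: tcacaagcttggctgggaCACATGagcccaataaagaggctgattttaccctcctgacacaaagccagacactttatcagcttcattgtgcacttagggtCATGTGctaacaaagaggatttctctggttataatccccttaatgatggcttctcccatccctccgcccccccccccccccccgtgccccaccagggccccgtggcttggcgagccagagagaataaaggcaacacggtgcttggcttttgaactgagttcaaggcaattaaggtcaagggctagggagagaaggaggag
The word is in 14.1% of all promoter windows and 7.74% of those of tested genes. It was also in the windows of Slc24a5, Oca2 and Trpm1, and not in those of Mitf and Kit. Only 8 of 12 melanocyte genes had a window, too few for a check over the list.

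Of 11 tested Schwann cell and glia genes, 9 rose and 1 fell. Sox10, a factor of crest, glia and melanocytes, went from 6.89, 4.53 and 4.31 CPM to 15.7, 16.8 and 26.1 CPM (log2 fold change 1.89, SE 0.22, adjusted p = 9.0e-06), and Erbb3, the glial neuregulin receptor, from 10.8, 10.501 and 9.77 CPM to 51.7, 57.6 and 54.6 CPM. The list summed to 89.9 to 115 CPM at E10.5 and 238 to 257 CPM at E14.5, against 77.3 to 96.4 CPM at E10.5 and 425 to 484 CPM at E14.5 for the melanocyte list. Neuronal genes went the other way, with 1 rise and 5 falls among 7 tested. The neuronal tubulin gene Tubb3 fell from 28.9, 35.4 and 29.8 CPM to 2.51, 2.04 and 2.08 CPM, and Stmn2 rose from 0.0335, 0.377 and 0.556 CPM to 3.33, 9.02 and 4.33 CPM. The proneural genes Neurog1, Neurod1 and Neurod4 were listed at 0 in all 6 libraries.

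Markers of epithelium and endothelium, cells that the crest reporter should not mark, were also seen. Of 13 tested epithelial genes 10 rose and 2 fell, and their sum was 15 to 17.3 CPM at E10.5 and 50.1 to 115 CPM at E14.5, highest in replicate 3 of the pinna. Krt14 and Krt17, keratins of basal epidermis 57.9 kb apart on chromosome 11, were switched on, Krt14 from 0, 0.0343 and 0 CPM to 4.12, 5.15 and 7.53 CPM. Both were under 1 CPM in every E10.5 and E12.5 library, so they were tested through the E14.5 libraries alone. Krt4 was at 1.65, 1.28 and 12.9 CPM and the epidermal keratin gene Krt1 at 3.19, 3.93 and 21.2 CPM in the pinna, so replicate 3 stands apart for both. Without that replicate, 9 epithelial genes rose. Of 9 tested endothelial genes 3 rose and 0 fell, and the list summed to 18.3 to 22.5 CPM at E10.5 and 122 to 185 CPM at E14.5. Kdr, the receptor for VEGF, made up most of that sum in the pinna and went from 3.14, 3.67 and 2.97 CPM to 167, 154 and 101 CPM. The other genes that rose stayed low, the adhesion protein gene Esam at 1.61, 1.93 and 2.47 CPM and the ETS factor gene Erg at 0.903, 1.07 and 1.27 CPM in the pinna. The defining markers Pecam1, Tek and Cdh5 were not called, with Pecam1 at 2.54, 3.02 and 3.1 CPM and 2.67, 2.23 and 2.41 CPM.

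Macrophage markers summed to 5.49 to 6.52 CPM at E10.5 and 9.03 to 14.2 CPM at E14.5, with C1qa at no more than 0.394 CPM and Aif1 listed at 0. Of 2 tested, 1 rose and 0 fell, the riser being Ptprc (log2 fold change 3.42, adjusted p = 2.5e-05 in edgeR). Skeletal muscle genes summed to 11.8 to 15.9 CPM at E10.5 and 25.1 to 28.7 CPM at E14.5, with Myod1 at no more than 0.328 CPM and Ckm at no more than 0.021 CPM. Of 7 tested muscle genes 2 rose (28.6%, against 23.1% over all tested genes) and 0 fell. The log2 fold changes were 4.25 for Myh3 and 2.95 for Ttn. Globin and other erythroid genes summed to 2.38 to 8.34 CPM at E10.5 and 2.8 to 15.2 CPM at E14.5. Of 3 tested erythroid genes 1 rose and 1 fell, Hba-a1 (log2 fold change 3.99) and Hba-x (-4.82). Of 8 tested pericyte and smooth muscle genes 5 rose and 2 fell, and the list summed to 313 to 334 CPM at E10.5 and 476 to 582 CPM at E14.5, with Cspg4 from 19.6, 23 and 28.4 CPM to 382, 311 and 382 CPM and Rgs5 from 28.3, 8.44 and 11.8 CPM to 0.947, 1.79 and 5.01 CPM. The part of any of these cells in the changes above was not tested.

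Immediate-early genes, which stress and dissociation can induce within minutes, were higher at E14.5, the stage with papain digestion, and enzyme and stage cannot be told apart for them. Of 21 tested, 16 rose and 0 fell, with a median log2 fold change of 3.34, and the list summed to 544 to 649 CPM at E10.5 and 3509 to 4052 CPM at E14.5. Fos went from 11.6, 5.63 and 8.33 CPM to 925, 905 and 739 CPM (log2 fold change 6.65, SE 0.34, adjusted p = 7.2e-09), Egr1 from 2.61, 1.85 and 3.04 CPM to 312, 362 and 383 CPM, and Nr4a1 from 5.65, 5.39 and 6.01 CPM to 615, 703 and 751 CPM. The E12.5 libraries, treated with trypsin like those of E10.5, had means of 170.3, 70.0 and 61.1 CPM for the 3 genes, between the groups. Jun and the heat shock gene Dnajb1 were not called at 2-fold, Dnajb1 at 86.0, 79.9 and 83.4 CPM and 87.8, 85.0 and 85.7 CPM. Egr3, one of the genes switched on, belongs to this list, as does Btg2, which is also in the list of CDK inhibitors and growth arrest genes.

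Genes of immune defence and energy use changed less evenly. Of 12 tested antigen presentation and interferon genes 7 rose and 1 fell, with B2m, the light chain of class I MHC, from 23.2, 22.3 and 21.4 CPM to 50.6, 44.8 and 48.2 CPM. Of 6 tested complement genes 6 rose, among them the inhibitor gene Serping1 from 10.0, 8.41 and 9.28 CPM to 30.5, 24.2 and 37.7 CPM. Several genes of the MHC region were listed at or near 0 in all 6 libraries and are not described. Of 26 tested hypoxia and glycolysis genes 9 rose and 4 fell (34.6% and 15.4%, against 23.1% and 16.2% over all tested genes). Pkm, the pyruvate kinase gene, fell from 1702, 1716 and 1551 CPM to 663, 609.7 and 492 CPM and Ldhb by 3.12 on the log2 scale, while Vegfa, the endothelial growth factor gene, rose from 62.6, 63.0 and 68.9 CPM to 254, 268 and 224 CPM.

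Beyond the lists, the rule for the largest changes named Cav1, the coat protein of caveolae, from 0, 0.103 and 0.163 CPM to 250.1, 224 and 242 CPM, the cation channel gene Trpm5 from 0.234, 0.0686 and 0.131 CPM to 258, 229 and 255 CPM, the calcium-binding protein gene Calb1 from 0.167, 0.137 and 0.196 CPM to 257, 258 and 149 CPM, the transporter gene Abca8a from 0.167, 0.0686 and 0 CPM to 99.6, 102 and 101 CPM, and Nxph4, a secreted neurexin ligand, from no count to 8.79, 5.78 and 5.41 CPM. The same rule named among the falls Asb4, a ubiquitin ligase adaptor, from 56.5, 57.9 and 64.4 CPM to 0.154, 0.294 and 0.35 CPM, and the noncoding RNA Foxd2os from 24.9, 23.1 and 20.3 CPM to 0.198, 0.021 and 0.0657 CPM. Cav1, Trpm5, Calb1 and Abca8a were not in the class of genes switched on because at least 1 PA2 library held 0.1 CPM or more. The genes that lost the most CPM, beside Rn45s, were the cytoskeletal and chaperone genes Actb and Hsp90ab1, followed by the growth regulators Grb10 and Mest, with Mest from 2401, 1996 and 1922 CPM to 682, 596 and 645 CPM.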

How the data were processed

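Crest cells were sorted, and their RNA was sequenced as unstranded TruSeq libraries with 50-base single reads. The authors aligned them to GRCm38 with QuasR and took, for each UCSC gene model, the exonic alignments lying antisense to it. The deposited values are counts, with no normalization. With unstranded libraries, reads of a gene and of a partner overlapping on the other strand cannot be told apart. In the stage counts, though, Slc24a5, Ldhd and Fam151a had 0 to 3 counts in each PA2 library. These genes share 39.5, 42.2 and 65.7% of their exon bases with Myef2, Znrf1 and Acot11 on the other strand. Whether the stage counts keep the strands apart was not tested. The submitters' processing notes also name mm10 and bcl2fastq 2.17 and 2.20.

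One edgeR model (edgeR 4.0.16 in R 4.3.3) with a mean per stage was fitted to the 9 stage libraries, scaled by TMM, for genes with at least 1 CPM in 2 libraries. The quasi-likelihood test was two-sided, with Benjamini-Hochberg adjustment across the tested genes, and the script was tested on simulated data. Genes were named by rule: the 15 largest rises and falls among called genes whose mean log2 CPM reached 1 and whose groups did not overlap, so that larger changes of lower genes are left out, members of the lists, the 10 highest genes of each switched class, and Hoxa2. Genes outside that rule are named with their values seen, and some genes are not reported here. The comparison, the lists and the classes were chosen with earlier results of these data known. Positions came from GENCODE M21, promoter windows from RefSeq (GRCm38.p6). Alternatives used DESeq2 1.42.0, limma 3.58.1, other scalings, filters and limits, equal depth, the 6 libraries alone, a replicate block and leaving out each library. Depth was 29224954 to 30219297 counts at E10.5 and 47506139 to 49058941 counts at E14.5, which sets the floors for genes at 0.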

Additional observations from a re-analysis of the deposited data

How the results depend on the processing

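Across 15 other fits, 1927 values of named genes kept their direction and their side of the threshold, 16 lost and 4 gained significance, and 3 turned sign. Over these fits and the other limits on fold and level, 1073 counts stayed within 1.5 times and 33 moved by more. Requiring 4-fold left 1663 rises and 640 falls. Genes switched on numbered 54 when off meant under 0.05 CPM and 28 when it meant no count, and genes switched off 17 and 6. With limits of 0.2 and 2 CPM, 120 genes were on, 60 of them among the 91, and 27 were off, 15 of them among the 27. Leaving out 1 library, which loosens the rule, gave 101 to 121 and 28 to 37. The Hox genes and cofactors that rose numbered 2 with limma-voom, 3 with no filter and 1 to 2 with a library left out. Of the IGF genes 1 fell with scaling by total counts only, and 0 to 1 with a library left out, and of the antigen genes 0 to 1 fell then. With no filter 1 complement gene fell. With a library left out, H19 ranged from -0.19 (without pinna replicate 3) to 0.076 (without pinna replicate 2), from -0.043. Des ranged from -0.11 (without pinna replicate 3) and -0.056 (without PA2 replicate 3) to 0.73 (without PA2 replicate 1), from 0.19. Neither gene reached 2-fold. Replicate numbers did not pair the samples (correlations of same-numbered deviations -0.05, -0.09 and -0.02). With the replicate block, genes called at least 2-fold higher numbered 3101 and genes called at least 2-fold lower 2188, 2 Hox genes and cofactors rose, and no other such count moved. The fitted folds of Foxf1 and Foxc2 ranged from -13.17 to -8.94 and from -11.53 to -8.76 with a library left out. Depth limits what can be said of genes under 0.1 CPM at E10.5: at equal depth 79 genes were switched on and 24 off.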

Other observations

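The Iroquois homeobox genes were in none of the lists and were picked after their values were seen. All 5 in the table rose, against 23.1% of all tested genes. Over 47 tested homeobox genes picked by symbol, the Iroquois genes among them, 13 rose and 20 fell. Irx1 went from 8.03, 10.47 and 12.3 CPM to 102, 109 and 176 CPM (log2 fold change 3.65, SE 0.21, adjusted p = 2.2e-08), Irx2 from 15, 20.1 and 23.2 CPM to 201, 204 and 232 CPM, Irx3 from 9.4, 14.2 and 16.7 CPM to 123, 119.9 and 176 CPM and Irx5 from 6.22, 12.1 and 14.8 CPM to 154, 149.8 and 187 CPM. Irx6 had the steepest rise, from 0.167, 0.24 and 0.425 CPM to 19.3, 16.8 and 18.1 CPM (log2 fold change 5.998, SE 0.19, adjusted p = 2.1e-10). Their means at E12.5 were 243, 210.1, 185, 164 and 14.7 CPM in the same order. The E12.5 means of Irx1 and Irx3 lay above every E14.5 library, those of Irx2 and Irx5 within the E14.5 range and that of Irx6 below it.

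Ion channel families rose more often than fell, which was not particular to them. Of 55 tested potassium channel genes 35 rose and 5 fell, with a median log2 fold change of 1.82, and of 24 tested sodium and calcium channel genes 15 rose and 0 fell, with a median of 2.03, against 23.1% risen and 16.2% fallen over all genes. Kcna4, a voltage-gated channel, rose to 40.0, 39.5 and 62.4 CPM from 0.0335, 0.0686 and 0.131 CPM, and Cacna2d3, a calcium channel subunit, to 233, 248 and 251 CPM from 0.87, 0.892 and 0.98 CPM. Cacna1g, a T-type calcium channel already present in the PA2, had 151, 184 and 238 CPM and then 709.6, 697 and 749 CPM. Both families were picked by symbol, with 55 of 98 and 24 of 40 genes tested. Scn7a and Scn3b were tested through the E14.5 libraries alone. Among other symbol families, 14 of 21 tested interleukin and receptor genes rose and 1 fell. Of 16 tested TNF ligand and receptor genes, 10 rose and 0 fell. Other families went the other way, such as the Sox genes, with 3 rises and 6 falls among 11 tested.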
